A study of Mus musculus with 9 samples.

Results

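The genes described here are 38 genes of motile cilia and of the ependymal cells that carry them. They were chosen by name from a list of gene symbols, but with earlier results of these data known. Shares and medians over the members therefore only describe a chosen set. All 38 of the listed symbols were found among the 54513 genes of the deposited expression table. All 38 also passed the filter on low counts, which left 18690 genes for the tests. The libraries were made from hippocampal tissue of mice whose diet, in all groups, was rich in fat and lasted 12 weeks. The HFD group received this high-fat diet alone. The IPA group also received indole-3-propionic acid, a product that gut bacteria make from tryptophan, by daily oral gavage at 100 mg per kg of body weight. The Trp group received the high-fat diet with tryptophan added at 0.5% by weight. Each group holds 3 libraries, the design text gives 3 mice per group, and no group on a standard diet is among the libraries used here. Neither the labels nor the design text used here give strain, sex, age or genotype. The table's columns are named by letter codes (WTB, HEB, HOB) that the labels tie to the HFD, IPA and Trp samples without saying what the letters stand for. The group names used here rest on that link alone.

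A motile cilium is a beating, hair-like projection built on a ring of doublet microtubules around a central pair. Dynein motor arms slide the doublets against each other, radial spokes and the central apparatus time the strokes, and the nexin-dynein regulatory complex ties neighbouring doublets together. In the brain such cilia stand on the ependymal cells that line the ventricles, next to the hippocampus, where they move cerebrospinal fluid, and choroid plexus epithelium carries cilia too. Foxj1 is the transcription factor best known for switching on this programme, and RFX transcription factors act with it by binding a promoter element called the X-box.

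Because many cilium genes carry X-boxes, the members' promoters were searched for its letters, and the matches are shown here as a picture of letters that some of these genes share. RefSeq promoters of the GRCm38.p6 build, from 250 bases before to 50 bases after each start, were found for 33 of the 38 members, giving 41 promoters. No promoter was matched for Cfap54, Cfap65, Foxj1, Rsph1 or Rsph4a. The RFX core GTTGCC, which forms an arm of the X-box and was searched on both strands, was present in 20 of the 41 promoters, or 48.8%, against 12.5% of all 32851 promoters of 300 bases. Those 20 promoters belong to 19 of the 33 members. The full RFX X-box consensus, which overlaps the RFX core, was present in 8 of the 41 promoters, or 19.5%, against 1.53% of all promoters. Those 8 promoters belong to 7 members, and each of these members also holds the RFX core. The forkhead letters GTAAACA were present in 3 of the 41 promoters, or 7.32%, against 3.65% of all promoters, in Ak7, Cfap43 and Mlf1. A match describes these letters only and does not show that a factor binds there.

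The X-boxes of 6 members are printed below in the direction of the gene, with the X-box in capitals, so that their shared arms can be compared. The X-box of the remaining member, Spef2, does not lie wholly before the start and is not printed. The windows lie at chr16:44394764-44394793 on the plus strand for Cfap44, chr8:116504956-116504984 on the plus strand for Dynlrb2, and chr8:110266948-110266976 on the plus strand for Hydin. Those of the others lie at chr6:124779871-124779899 on the minus strand for Lrrc23, chr1:69826859-69826888 on the plus strand for Spag16, and chr4:126325697-126325725 on the minus strand for Tekt2. The X-boxes begin 27, 51, 21, 164 and 103 bases before the start for Cfap44, Dynlrb2, Hydin, Lrrc23 and Spag16. That of Tekt2, whose entries give more than one start, begins 71 or 29 bases before the start. In the GENCODE annotation of GRCm38, 29 of 29 window bases of Hydin and 11 of 29 of Dynlrb2 lie in exons.
Cfap44: ggagggacGTTGCTATGGCAACcgcagtaa
Dynlrb2: cctgcctgGTTGCCTAGCAACgggggaag
Hydin: actctgcgGTTGCTGTGGCAACagatggt
Lrrc23: ttggcctcGTAACCTGGCAACtactgagc
Spag16: ggcaacgcGTTGCCGTAGTAACtgcggacg
Tekt2: agggggcgGTTGCTCGGCAACcagagccg

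Among exact matches, Tekt4, the member with the clearest difference between the groups, and other members described below held only the RFX core. It is shown in capitals as GTTGCC or, on the other strand, GGCAAC. Near matches to the X-box consensus were not counted, so X-box-like letters may lie elsewhere in these promoters, as they do upstream of Tekt4. The windows lie at chr17:25471586-25471615 on the plus strand for Tekt4, chr2:18698973-18699002 on the plus strand for Spag6, and chr5:30281370-30281399 on the plus strand for Drc1. The remaining windows lie at chr9:44240513-44240542 on the plus strand for Ccdc153 and chr12:33092864-33092893 on the minus strand for Cdhr3. The RFX core begins at base 9 counted from the RefSeq start of Tekt4, with the start base itself counted. That start lies 16975 bases from the start of the gene in the GENCODE annotation of GRCm38, so it belongs to a shorter transcript. In the others the core begins 37 bases before the start for Spag6, 11 for Drc1, 152 for Ccdc153 and 6 for Cdhr3.
Tekt4: caatgttccttaGGCAACcaggaaccttgc
Spag6: cgattccgactgGTTGCCcaggagtgtggg
Drc1: ctgctttcccttGGCAACggcttgttccta
Ccdc153: ctgagttttccaGTTGCCtggacaacgtgc
Cdhr3: ggtttcctgcctGGCAACaaagtcaggagg

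The libraries held 40621084 to 50938746 counts and 23940 to 24947 genes with a count. A count of 0 allows up to 0.0584 to 0.0751 CPM, which are counts scaled to library size, taking 3 counts as the limit, and this limit covers counting error only. Markers of dentate granule cells and of the pyramidal cells of the CA fields were detected in the tissue, 10 of 10 in each list, but so were 12 of 12 markers of striatal projection neurons, with a mean log2 CPM from 5.04 in HFD 3 to 7.20 in IPA 3. All 20 choroid plexus genes were detected as well, and their mean log2 CPM ran from 0.05 in Trp 3 to 3.97 in Trp 1. The levels of these striatal and choroid plexus markers thus differed between libraries of 1 group as well as between groups. In bulk tissue, fewer cells of a type and less RNA per cell cannot be told apart.

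The members were weakly expressed in this tissue. On the FPKM scale, which corrects fragment counts for gene length and library depth, their means over the 9 libraries ran from 0.0281 for Dnah12, an inner-arm dynein heavy chain, to 5.80 for Drc1, the scaffold of the nexin-dynein regulatory complex. The median was 0.798, with 17 members at 1 or more and 4 under 0.1. After Drc1 came Ccdc153 at 4.58, Rsph1 at 3.70, Dynlrb2 at 2.97, Cfap126 at 2.41 and Foxj1 at 2.36 FPKM, and the lowest after Dnah12 were Spag17 at 0.0339, Dnah11 at 0.0485 and Hydin at 0.0590 FPKM. The raw counts of single members ran from 0, for Spag17 in HFD 1, to 915, for Drc1 in HFD 2. Among the genes expected in ependymal cells, Foxj1, Ccdc153, Tmem212, Dynlrb2 and Rsph1 were each counted in all 9 libraries.

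**Figure D1:**
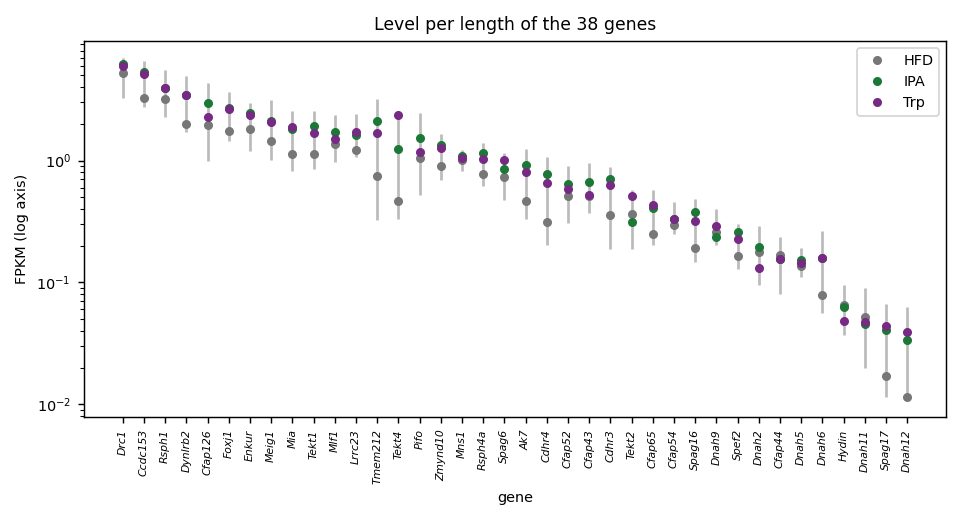
FPKM (log axis) of the 38 members, ordered by their mean, with 1 point for the mean of each group of 3 libraries (HFD, IPA and Trp) and a line from the lowest to the highest library; the FPKM of 0 of Spag17 in HFD 1 cannot be drawn on a log axis and is left out of its line. Drc1 is the highest, at a mean of 5.80 over the 9 libraries, and most dynein heavy chains are at the low end.

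The first question is whether tryptophan added to the high-fat diet went with other levels of these genes. Of the 38 members, 1 passed an adjusted p of 0.05 by the quasi-likelihood test of edgeR, with p-values adjusted over all genes by Benjamini and Hochberg's method: Tekt4, which rose 4.72-fold. Over all genes tested, 0.342% passed, 64 of 18690, 40 higher and 24 lower with tryptophan. Without passing the test, 32 of the 38 members had a higher fitted level with tryptophan, or 84.2%, against 49.5% of all genes, and their median log2 fold change was 0.35, against −0.00 over all genes. At an unadjusted p of 0.05, 4 members were higher (Tekt4, Dnah12, Cdhr3 and Cfap65) and 0 lower, and 5.76% of all genes were higher by that rule. That count was 2 without Trp 1 and 2 without Trp 2, 15 without Trp 3, 18 without HFD 3 and Trp 3, and 8 without the filter on low counts. With the choroid plexus mean as a covariate, 6 members passed the unadjusted threshold for Trp. Every Trp library lay above every HFD library for 2 members, Tekt4 and Dnah12, against 8.06% of all genes, so the share of members separating the groups was not above that of genes at large. The members' median stayed above 0 in all 20 alternatives, but its size depended on single libraries. It was 0.20 with 23 members higher without Trp 1, 0.59 with 36 higher without Trp 3, and 0.73 without HFD 3 and Trp 3. The p-values set the fitted difference against the spread between these libraries. An exact permutation test of 3 against 3 could not give a p under 0.1.

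The second question is the same for indole-3-propionic acid. Here 0 of the 38 members passed edgeR's quasi-likelihood test at an adjusted p of 0.05, where 0.00535% of all genes did, which is 1 gene. DESeq2 called 1 member, Tekt4, and 0.915% of all genes. A higher fitted level with the compound was found for 35 of the 38 members, or 92.1%, against 48.9% of all genes, and the median log2 fold change of the members was 0.51, against −0.01 over all genes. At an unadjusted p of 0.05, 13 members were higher and 0 lower, against 4.95% of all genes higher. Every IPA library lay above every HFD library for 12 members, against 7.19% of all genes. Those 12 were Tekt4, Dnah6, Dnah12, Dynlrb2, Rsph4a, Ak7, Cfap54, Ccdc153, Tmem212, Cfap65, Cdhr3 and Cdhr4. The count of 13 was 2 without IPA 2, 6 without IPA 3, 4 without HFD 1 and 7 without HFD 3. With the choroid plexus mean as a covariate it was 2, and the median was then 0.28, with 28 members higher.

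Marker lists of other cells in the tissue also differed in sign between the same groups, with 0 genes passing in edgeR. With IPA, striatal markers were higher in 12 of 12 (median log2 fold change 0.73), but markers of the CA fields in only 1 of 10 (−0.66, 4 lower at an unadjusted p of 0.05), dentate markers in 2 of 10 (−0.47, 1 lower) and meningeal markers in 1 of 8 (−0.97, 4 lower). With Trp, striatal markers were higher in 12 of 12 (0.42), CA field markers in 3 of 10 (−0.35), dentate markers in 2 of 10 (−0.22) and meningeal markers in 1 of 8 (−0.45). A single library, HFD 3, was the extreme in each of these lists. Its mean log2 CPM was the lowest for striatal markers (5.04) and the highest for CA field (4.63), dentate (3.59) and meningeal markers (3.08). The part of HFD 3 in these differences was not tested. Over all genes, 48.9% were higher with IPA and 49.5% with Trp. At an unadjusted p of 0.05, 1020 of all 18690 genes were lower with IPA. The part of these marker lists in the members' values was not tested.

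Between the supplemented groups, 0 of the 38 members passed in edgeR or in DESeq2, where 0% of all genes passed in edgeR and 0.0803% in DESeq2. At an unadjusted p of 0.05, 1 member differed, Tekt4, against 4.49% of all genes in either direction. The fitted level was higher with tryptophan than with indole-3-propionic acid for 9 members and lower for 29, with a median log2 difference of −0.13 against 0.01 over all genes. That sign was not stable, since the median was 0.06 without Trp 3. The comparisons of the supplemented groups with HFD share the HFD libraries, so their like signs do not count as separate results.

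**Figure D2:**
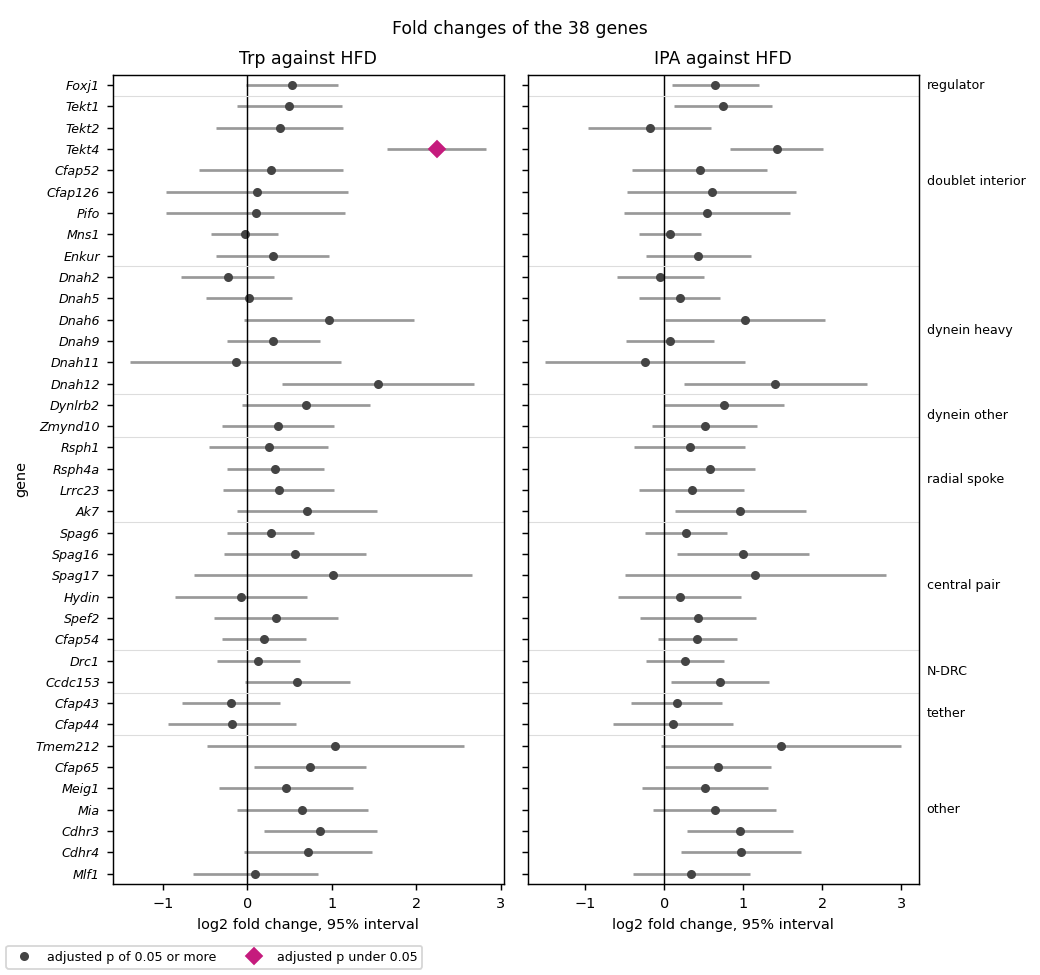
Log2 fold change of each of the 38 members against HFD, with 95% intervals from edgeR, for Trp and for IPA, ordered by role. The interval of Tekt4 for Trp runs from 1.65 to 2.82, and most other intervals include 0.

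Foxj1, the regulator of the programme, had 4.24, 5.02 and 6.15 CPM in the HFD libraries, 5.08, 10.5 and 8.51 in the IPA libraries and 8.88, 7.30 and 5.99 in the Trp libraries. The groups overlapped in both comparisons, because IPA 1 and Trp 3 lay within the HFD range. The means were 5.14 ± 0.961 with HFD, 8.04 ± 2.75 with IPA and 7.39 ± 1.45 with Trp (SD, n = 3). Its fitted log2 change was 0.53 (SE 0.25, 95% interval −0.02 to 1.07, adjusted p = 0.467 in edgeR) with Trp and 0.65 (SE 0.25, 95% interval 0.10 to 1.20, adjusted p = 0.431 in edgeR) with IPA.

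Tekt4 encodes a tektin, a filament protein laid along the inside of the doublet microtubules and known from the tails of sperm as well as from cilia. The table places it on chromosome 17, plus strand. It had 0.578, 0.706 and 1.16 CPM in the HFD libraries, from 27, 35 and 49 counts. It had 2.68, 2.02 and 1.84 CPM in the IPA libraries, from 107, 82 and 78 counts, and 4.03, 4.09 and 3.41 CPM in the Trp libraries, from 207, 171 and 169 counts. The groups did not overlap in any pairing: each Trp library was above each IPA library, and each IPA library above each HFD library. The means were 0.816 ± 0.308 with HFD, 2.18 ± 0.439 with IPA and 3.84 ± 0.381 with Trp (SD, n = 3).

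With Trp, the fitted log2 change of Tekt4 was 2.24, with an SE of 0.27, a 95% interval from 1.65 to 2.82 and an adjusted p of 0.00568 in edgeR. Over the alternatives it ran from 1.59 to 2.66, with adjusted p from 3.4e-11 to 0.0432 in edgeR, limma or DESeq2, and the gene passed in all 20. The log2 fold change with IPA was 1.42 (SE 0.27, 95% interval 0.83 to 2.01), or 2.68-fold, and it missed the threshold with an adjusted p of 0.144 in edgeR. It passed in 3 of 20 alternatives: DESeq2 with an adjusted p of 0.00111, edgeR without HFD 3 with 0.021, and edgeR without HFD 3 and Trp 3 with 0.00747. Between Trp and IPA the log2 difference was 0.82 (SE 0.25, 95% interval 0.27 to 1.36), with a p of 0.00668 and an adjusted p of 0.987 in edgeR. In the authors' deposited table the log2 fold change of Tekt4 is 2.241 for Trp with a q-value of 7e-09, and 1.427 for IPA with a q-value of 0.01803. It is the only member with a q-value under 0.05 in either of the authors' deposited comparisons, among 35 members with a q-value for Trp and 34 for IPA. Of all genes with a q-value in the authors' deposited table, 1.53% were under 0.05 for Trp and 1.24% for IPA. DESeq2 called 1.6% of all genes for Trp, and Tekt4 as the only member.

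Trp 3 had the lowest value of 18 of the 38 members, but its 3.41 CPM of Tekt4 was above every HFD and IPA library. With the choroid plexus mean as a covariate, the log2 fold change of Tekt4 with Trp was 2.23 (adjusted p = 0.00231 in edgeR). The gene shares no exon bases with another gene in the GENCODE annotation. Of the 45 tested genes within 500000 bases of it by the deposited coordinates, 0 passed for Trp in edgeR, with a lowest adjusted p of 0.334, that of Gng13. Of all genes only 0.342% passed, so a count of 0 among 45 tells little about the locus. The log2 fold changes of these 45 genes with Trp ran from −1.10 to 0.91. Among the other tektins, the HFD and supplemented libraries of Tekt1 and Tekt2 overlapped. Tekt1 ran from 1.35 CPM in HFD 1 to 3.92 in IPA 2, with log2 fold changes of 0.49 with Trp and 0.74 with IPA, and Tekt2 from 0.355 CPM in IPA 3 to 0.955 in Trp 1, with 0.38 and −0.19. Outside the 38 genes, Tekt5 had log2 fold changes of −0.23 with Trp and −0.11 with IPA. Tekt3 was too low to be tested, at 0 in all HFD libraries and at most 0.156 CPM in any other. Of the exon bases of Tekt2, 20.8% are shared with Gm12945, and since the strand setting of the counting is not given, such reads cannot be told apart. Sperm genes were near 0: of 8 germ cell markers, 6 had no count in any library, and their summed level was 0 to 0.192 CPM.

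**Figure D3:**
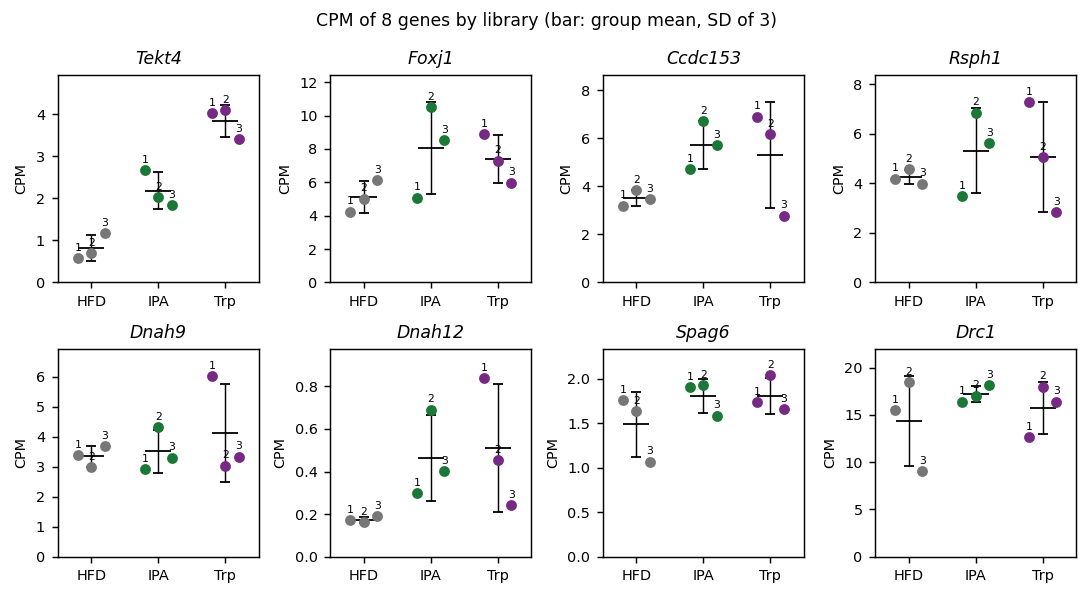
CPM of 8 members in each library, by group, with the replicate number beside each point and a bar for the mean and SD of 3 libraries. Tekt4 shows no overlap between HFD, IPA and Trp, whereas Trp 3 lies within or below the range of the HFD libraries in the other genes shown except Dnah12.

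The other proteins inside the doublets did not pass in either comparison. Cfap126, also called Flattop, had 1.39, 1.33 and 2.94 CPM with HFD, 2.25, 3.62 and 2.67 with IPA, and 3.33, 1.96 and 0.786 with Trp. Trp 1 was above and Trp 3 below all HFD libraries. Fitted on the log2 scale, the change was 0.11 with Trp (95% interval −0.97 to 1.19, adjusted p = 0.965 in edgeR) and 0.60 with IPA (adjusted p = 0.699 in edgeR). Cfap52, Pifo and Enkur, also members of this layer, had log2 fold changes of 0.27, 0.10 and 0.30 with Trp and 0.45, 0.54 and 0.43 with IPA. Mns1, a filament-like protein of the doublet interior, was the steadiest, at 4.74 to 7.09 CPM with log2 fold changes of −0.03 and 0.07. Reads of Mns1 are uncertain, since 53.0% of its exon bases are shared with Tex9 on the opposite strand. Of the 8 members in this role, 7 were higher with Trp, with a median log2 fold change of 0.29, and 7 with IPA, with a median of 0.49.

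The dynein heavy chains are the motors of the cilium. Dnah9, of the outer arm, had 3.38, 2.99 and 3.68 CPM with HFD, 2.93, 4.31 and 3.31 with IPA, and 6.02, 3.04 and 3.35 with Trp. Only Trp 1 stood clear of the other libraries, and the log2 fold change was 0.31 with Trp (adjusted p = 0.718 in edgeR) and 0.07 with IPA (adjusted p = 0.947 in edgeR). Dnah12, of the inner arm, had 0.171, 0.161 and 0.190 CPM with HFD, 0.300, 0.690 and 0.402 with IPA, and 0.838, 0.455 and 0.242 with Trp. Every supplemented library was above every HFD library, but these values rest on only 8 to 43 counts per library. In log2 terms the fitted change was 1.55 with Trp (SE 0.53, adjusted p = 0.288 in edgeR) and 1.40 with IPA (SE 0.53, adjusted p = 0.418 in edgeR).

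Dnah6, another inner-arm chain, ran from 0.792 CPM in HFD 1 to 3.70 in Trp 1, with log2 fold changes of 0.96 with Trp and 1.02 with IPA. Dnah2, Dnah5 and Dnah11 had log2 fold changes of −0.23, 0.02 and −0.14 with Trp and of −0.05, 0.19 and −0.24 with IPA. The signs were mixed among the heavy chains: 4 of 6 were higher in each comparison, with medians of 0.16 and 0.13. Dynlrb2, a light chain, had 1.03, 1.29 and 1.28 CPM with HFD, 1.33, 2.71 and 2.06 with IPA, and 2.86, 1.87 and 1.09 with Trp. Its IPA libraries were all above the HFD libraries, IPA 1 by a narrow margin, and Trp 3 lay inside the HFD range. Its fitted log2 change was 0.69 with Trp (adjusted p = 0.488 in edgeR) and 0.76 with IPA (adjusted p = 0.48 in edgeR). Zmynd10, a factor that assembles dynein arms in the cytoplasm, ran from 1.33 CPM in HFD 1 to 3.18 in IPA 2, with log2 fold changes of 0.36 and 0.51.

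Radial spokes carry signals from the central pair to the dyneins. Rsph1, of the spoke head, had 4.20, 4.58 and 3.99 CPM with HFD, 3.48, 6.85 and 5.63 with IPA, and 7.27, 5.08 and 2.84 with Trp. Each supplemented group had 1 library below all HFD libraries and 2 above them. Fitted on the log2 scale, the change was 0.25 with Trp (adjusted p = 0.831 in edgeR) and 0.32 with IPA (adjusted p = 0.76 in edgeR). Ak7, an adenylate kinase that handles the nucleotides spent by the motors, had 1.18, 2.12 and 1.66 CPM with HFD, 2.63, 4.12 and 2.93 with IPA, and 4.23, 2.54 and 1.33 with Trp. All IPA libraries were above all HFD libraries, and Trp 3 lay among the HFD libraries. In log2 terms the fitted change was 0.71 with Trp (adjusted p = 0.526 in edgeR) and 0.96 with IPA (adjusted p = 0.435 in edgeR). The log2 fold changes of Rsph4a, another spoke head protein, were 0.33 and 0.58, and those of Lrrc23, of a neighbouring spoke, 0.37 and 0.35.

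The central apparatus surrounds the central pair. Spag6 had 1.76, 1.63 and 1.07 CPM with HFD, 1.90, 1.92 and 1.58 with IPA, and 1.73, 2.04 and 1.65 with Trp, so the groups overlapped. Its fitted log2 change was 0.28 with Trp (adjusted p = 0.725 in edgeR) and 0.27 with IPA (adjusted p = 0.717 in edgeR), and reads may be divided with its near-identical copy Spag6l. Spag16 had 0.642, 0.525 and 0.855 CPM with HFD, 0.826, 1.60 and 1.61 with IPA, and 1.29, 1.17 and 0.524 with Trp. Here IPA 2 and IPA 3 were the highest libraries and Trp 3 the lowest, and the log2 fold change was 0.56 with Trp (adjusted p = 0.644 in edgeR) and 1.00 with IPA (adjusted p = 0.425 in edgeR). Cfap54, Hydin and Spef2, large proteins of the projections on the central pair, had log2 fold changes of 0.20, −0.08 and 0.34 with Trp and 0.42, 0.20 and 0.42 with IPA. Spag17, of the same apparatus, reached no more than 0.468 CPM, and its log2 fold changes of 1.01 and 1.15 rest on 0 to 20 counts.

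The nexin-dynein regulatory complex is represented by Drc1 and Ccdc153. Drc1 had 15.5, 18.5 and 9.10 CPM with HFD, 16.4, 17.0 and 18.2 with IPA, and 12.7, 18.0 and 16.4 with Trp. HFD 3 and Trp 1 were the lowest, and the groups overlapped. The mean log2 CPM of the striatal markers was 6.13, 6.84 and 5.04 with HFD, 6.77, 6.84 and 7.20 with IPA, and 6.26, 6.79 and 6.54 with Trp. Within each group it put the libraries in the same order as Drc1 did, and its part in the level of Drc1 was not tested. The means were 14.3 ± 4.79 with HFD, 17.2 ± 0.881 with IPA and 15.7 ± 2.74 with Trp (SD, n = 3), with log2 fold changes of 0.26 with IPA (adjusted p = 0.716 in edgeR) and 0.13 with Trp (adjusted p = 0.89 in edgeR).

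Ccdc153, an ependymal marker, had 3.19, 3.85 and 3.47 CPM with HFD, 4.70, 6.71 and 5.70 with IPA, and 6.90, 6.18 and 2.78 with Trp. The IPA libraries were all above the HFD libraries, and in the Trp group Trp 3 was below them. Fitted on the log2 scale, the change was 0.59 with Trp (SE 0.28, adjusted p = 0.467 in edgeR) and 0.70 with IPA (SE 0.28, adjusted p = 0.449 in edgeR). Without HFD 3 and Trp 3, a choice made after seeing the data, the value with Trp was 0.89 and passed (adjusted p = 0.0266 in edgeR).

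The tether proteins Cfap43 and Cfap44 hold an inner-arm dynein to the doublet and were the only role in which every member had a lower fitted level with Trp. Cfap43 had 2.93, 3.25 and 4.20 CPM with HFD, 3.80, 4.73 and 3.05 with IPA, and 4.34, 2.37 and 2.32 with Trp. Trp 2 and Trp 3 were below all HFD libraries and Trp 1 was above them. In log2 terms the fitted change was −0.20 with Trp (adjusted p = 0.845 in edgeR) and 0.16 with IPA (adjusted p = 0.873 in edgeR), and that with Trp was 0.13 without HFD 3 and Trp 3. The log2 fold changes of Cfap44 were −0.18 and 0.11.

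The remaining 7 members are cilium or ependymal genes with other roles, and all 7 had a higher fitted level in both comparisons, with medians of 0.72 with Trp and 0.68 with IPA. Cdhr3, a cadherin-related protein of the surface of ciliated cells, had 1.22, 0.666 and 0.997 CPM with HFD, 1.90, 2.02 and 1.68 with IPA, and 2.10, 2.08 and 1.07 with Trp. Trp 3 was the only supplemented library within the HFD range. Its fitted log2 change was 0.86 with Trp (SE 0.31, adjusted p = 0.315 in edgeR) and 0.96 with IPA (SE 0.31, adjusted p = 0.345 in edgeR). Meig1, known from the shaping of sperm and also expressed in ciliated cells, had 1.20, 0.868 and 0.950 CPM with HFD, 1.18, 1.31 and 1.82 with IPA, and 2.10, 1.36 and 0.665 with Trp. The groups overlapped, and the log2 fold change was 0.46 with Trp (adjusted p = 0.709 in edgeR) and 0.51 with IPA (adjusted p = 0.652 in edgeR).

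Tmem212, an ependymal membrane protein, spanned a wide range, from 0.262 CPM in Trp 3 to 2.42 in Trp 2, with log2 fold changes of 1.04 with Trp and 1.48 with IPA. Those of Cfap65, a ciliary protein also needed in sperm tails, were 0.74 and 0.68, and those of Mlf1, known for its abundance in ciliated cells, 0.09 and 0.34. Cdhr4, a relative of Cdhr3, had 0.72 and 0.97, and Mia, a small secreted protein, 0.65 and 0.64. For Cdhr4, 52.2% of the exon bases are shared with other genes, and for Mia 41.2% with Gm21983, so reads of both are uncertain.

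Library by library, the members' level differed most inside the supplemented groups. The summed level of the 38 members was 79.0, 84.7 and 79.6 CPM in the HFD libraries, 92.7, 127 and 112 in the IPA libraries and 126, 107 and 74.1 in the Trp libraries. The HFD libraries were close to each other, the IPA libraries were all above them, and the Trp libraries took both the second-highest and the lowest place. The members' mean log2 CPM was 0.50, 0.61 and 0.59 with HFD, 0.81, 1.35 and 1.14 with IPA, and 1.39, 1.04 and 0.38 with Trp, with a pooled SD within groups of 0.34.

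Trp 1 held the highest value of 18 members and IPA 2 that of 10, so that 1 of these libraries was highest for 28 of 38. Of all genes tested, Trp 1 was highest for 8.92% and IPA 2 for 6.47%. Trp 3 held the lowest value of 18 members, against 12.1% of all genes, and HFD 1 that of 10, against 13.9%. Above every HFD library were 31 members in Trp 1, 22 in Trp 2 and 3 in Trp 3, against 25.3%, 25.5% and 25.5% of all genes. The same count was 15 in IPA 1, 30 in IPA 2 and 27 in IPA 3, against 22.8%, 23.7% and 26.9% of all genes.

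**Figure D4:**
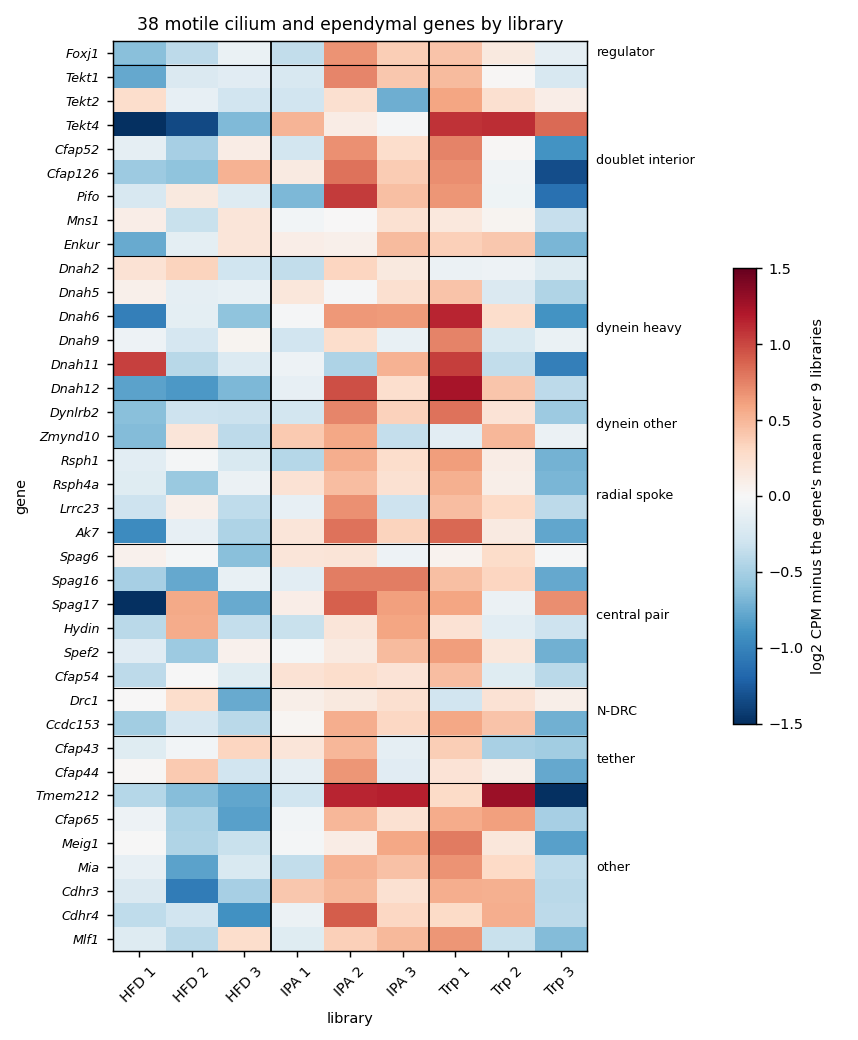
Log2 CPM of each of the 38 members in each library, less that gene's mean over the 9 libraries, with rows grouped by role and colours capped at 1.5 in each direction. Trp 1 and IPA 2 are above the mean for most members and Trp 3 is below it for most, with Tekt4 and Spag17 as rows in which Trp 3 is high.

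Choroid plexus epithelium, the other ciliated tissue of the ventricles, was followed by its markers. Their mean log2 CPM was 1.51, 1.23 and 3.18 with HFD, 2.17, 3.71 and 3.14 with IPA, and 3.97, 2.46 and 0.05 with Trp, and 20 of 20 were higher in both comparisons, with medians of 0.72 with Trp and 0.97 with IPA and 0 passing in edgeR. Their summed level ran from 351 to 1183 CPM with HFD, from 649 to 1776 with IPA and from 249 to 2134 with Trp. Ttr, the transthyretin gene that dominates this epithelium, had 194, 113 and 642 CPM with HFD, 257, 1087 and 752 with IPA, and 1288, 563 and 25.7 with Trp. Within the IPA and the Trp libraries the order of the members' mean was the order of the choroid plexus mean. Within the HFD libraries it was not, since HFD 3 had a choroid plexus mean of 3.18 and a members' mean of 0.59. With the choroid plexus mean as a covariate, the members' median was 0.26 with Trp and 0.28 with IPA, with 28 higher in each. The part of choroid plexus or ventricle wall in the dissections behind the members' values was not tested further.

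Genes that ependymal cells express outside the cilium served as a check of the cell type. Of 12 such genes tested, 2 were higher with Trp and 2 with IPA, with medians of −0.25 and −0.17, and 0 passed in edgeR. At an unadjusted p of 0.05, 0 of them were higher and 3 lower with Trp, and 1 higher and 3 lower with IPA. By that rule 1035 of all 18690 genes were lower with Trp and 1020 with IPA, and 4.95% were higher with IPA. Their mean log2 CPM lay between 3.78 in IPA 1 and 4.28 in HFD 3. Several of these genes are known from astrocytes as well, so they are not specific to the ependyma. Of 8 astrocyte markers, 6 were higher with Trp, with a median of 0.09, and 5 with IPA, with a median of 0.00. At an unadjusted p of 0.05, 3 of them were higher with Trp, against 5.76% of all genes, and 0 with IPA. None were lower by that rule, and 0 passed in edgeR. The part of astrocytes in these values was not tested. Of 10 tanycyte genes tested, 5 were higher with Trp and 4 with IPA, and 0 passed in edgeR. At an unadjusted p of 0.05, 0 tanycyte genes were higher and 3 lower with Trp, and 1 was higher and 1 lower with IPA.

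**Figure D5:**
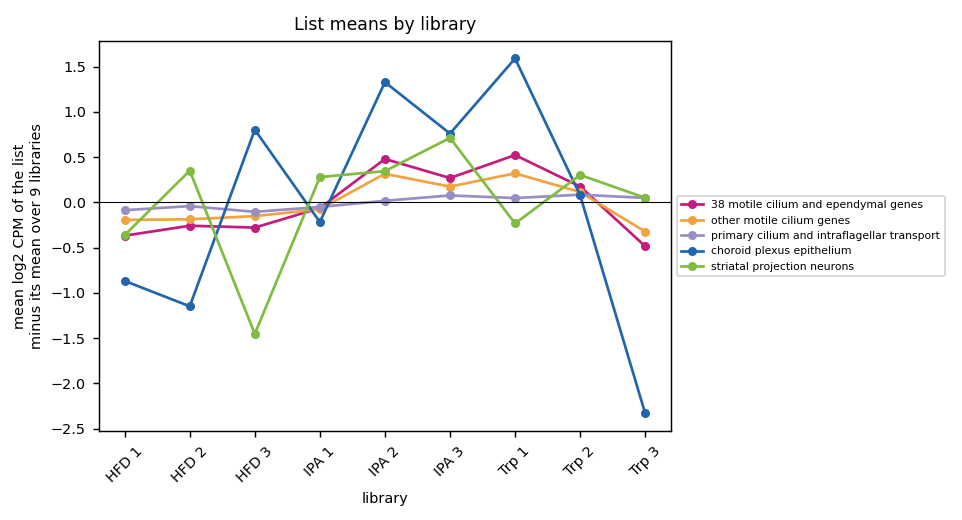
Mean log2 CPM of the 38 members and of 4 other gene lists in each library, less the list's mean over the 9 libraries; lines join the points of a list and do not stand for an order of libraries. The members and the choroid plexus list both have Trp 1 as the highest and Trp 3 as the lowest library, while HFD 3 is above its mean in the choroid plexus list and below it in the members.

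Motile cilium genes that are not members had medians nearer to 0. These genes and the members were chosen with earlier results of these data known. The part of that choice in the difference was not tested. Of 106 such genes listed, 98 were found in the table and 94 were tested. With Trp, 69 of the 94 were higher, with a median log2 fold change of 0.24, and with IPA 71 were higher, with a median of 0.22. Over all genes, 49.5% were higher with Trp and 48.9% with IPA. In edgeR 0 of the 94 passed in each comparison. At an unadjusted p of 0.05, 6 were higher and 1 lower with Trp, against 5.76% of all genes higher. With IPA, 9 were higher and 0 lower, against 4.95% of all genes higher. Rfx3, an RFX factor of ciliated cells and neurons, had a log2 fold change of −0.41 with Trp (SE 0.13, adjusted p = 0.268 in edgeR). Iqca, Armc3 and Rsph14 had 1.11, 0.99 and 2.17 with Trp (adjusted p of 0.299, 0.325 and 0.357 in edgeR). The value of Rsph14 has an SE of 0.85 and rests on very low levels, 0, 0.141 and 0.0950 CPM with HFD and 0.701, 0.120 and 0.262 with Trp, where Trp 2 lay within the HFD range.

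The most abundant genes of that list on the FPKM scale were Cfap20 at 24.3, Dnal1 at 19.6, Dnal4 at 18.2 and Rsph9 at 9.26 FPKM, all above Drc1. Their log2 fold changes with Trp were −0.07, −0.09, 0.06 and −0.09. A further list held 41 genes of the primary cilium and intraflagellar transport, which neurons and glia also use in their single immotile cilia. Of these 41 genes, 32 were higher with Trp and 29 with IPA, both with a median of 0.13, and 0 passed in edgeR. At an unadjusted p of 0.05, 7 of them were higher and 0 lower with Trp, and 3 higher and 1 lower with IPA. By that rule 5.76% of all genes were higher with Trp and 4.95% with IPA. By sign alone the shares of all genes were 49.5% and 48.9%.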

How the data were processed

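RNA of hippocampal tissue was sequenced in 9 libraries from poly(A)-selected, randomly primed cDNA, per the labels' protocols. The authors deposited a table with raw counts and FPKM values per gene and library. The table also holds the authors' deposited log2 fold changes, p-values and q-values, whose test is not given in the sources used here. StringTie 2.1.3b and mm10 are named in the submitters' processing notes, and no source used here names the aligner, counter, annotation release or strand setting. The table's gene starts matched those of the GENCODE annotation of GRCm38 for 0 of 38 members, although 36 had the same chromosome and length, so the table's coordinates are not printed. Columns were tied to samples through the code in each sample's description. No library pair held identical counts.

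The deposited counts were tested with edgeR 4.0.16 in R 4.3.3: genes kept by filterByExpr with a minimum count of 10, TMM scaling, 1 mean per group over all 9 libraries, a robust quasi-likelihood test and Benjamini-Hochberg adjustment over 18690 genes, with a threshold of 0.05. CPM use TMM-adjusted library sizes, log2 CPM a prior count of 2, and 95% intervals the SE from the fold change and its F statistic. FPKM, as deposited, served to compare levels between genes. The sets called "higher" go by the sign of the fitted fold change. Alternatives were DESeq2 1.42.0, RLE and upper quartile scaling, no filter, limma 3.58.1 on log2 FPKM, the 6 libraries compared alone, a replicate block, a choroid plexus covariate and leaving out libraries.

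The members, their roles, the other lists and the alternatives were chosen with earlier results of these data known. Values per library are given for Foxj1, for any member that passed, and in each role for the member with the highest mean FPKM and the one with the smallest p for Trp. Of the listed genes, 2 were matched through RefSeq synonyms. Figures were drawn with matplotlib 3.10.9.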

Additional observations from a re-analysis of the deposited data

How the results depend on the processing

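The count of genes called for Trp was 64, against 299 with DESeq2, 97 without the filter, 8 with only the 6 libraries compared, 23 with the replicate block, 117 with the choroid plexus covariate, and 13 (without Trp 2) to 323 (without HFD 3) when single libraries were left out. For IPA it was 1, against 171, 6, 2, 0 and 0 in the same order, 2 with limma on log2(FPKM + 0.1), and 0 to 52 (without HFD 3) without single libraries. For Trp against IPA it was 0, against 15 with DESeq2, 3 without the filter, 1 with limma at either pseudocount, 2 with limma at an FPKM of at least 1, and 0 to 1 without single libraries. Leaving out HFD 3 and Trp 3, chosen after seeing the data, gave 775, 247 and 2. The members called were 1 to 2 for Trp, with 2 only in that last setting, and 0 to 1 for IPA, with 1 (Tekt4) in that setting, with DESeq2 and without HFD 3. The members' median ran from 0.20 to 0.59 for Trp and −0.43 to 0.0558 for Trp against IPA without single libraries (0.0558 without Trp 3, 0.00351 without IPA 2), and was 0.73 and 0.0558 without HFD 3 and Trp 3. For Trp and for IPA the members' median kept its sign in all settings, and for IPA it was 0.28 to 0.63. Replicate numbers showed no pairing of the libraries: their residual correlations were −0.196 to 0.0479, and 0 of 9 libraries correlated best with their own number in both other groups at once. With the replicate block Tekt4 passed for Trp (adjusted p = 0.0285 in edgeR). Signs turned for Trp in Cfap43 (0.00376 with limma at 0.5, 0.126 without HFD 3 and Trp 3), Cfap126 (−0.132 with the covariate, −0.463 without Trp 1 to 0.575 without HFD 3, below 0 also without HFD 1 or HFD 2), Drc1 (−0.114 without HFD 3 to 0.350 without HFD 2, −0.148 without HFD 3 and Trp 3), Dnah9 (−0.0672 without Trp 1 to 0.485) and Rsph1 (−0.109 without Trp 1 to 0.537). For IPA they turned in Dnah9 (−0.0494 with limma at 0.5, −0.107 at 0.1, −0.145 with the covariate, −0.102 without IPA 2 to 0.187, below 0 also without HFD 2), Rsph1 (−0.0462 with the covariate) and Cfap43 (−0.0523 with the covariate, −0.0136 without IPA 2 to 0.320). The limma fits tested 34 or 18 members. The cause of these shifts was not tested, and genes with few counts, such as Dnah12 and Spag17, are limited by depth.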
